A study of Mus musculus with 6 samples.

Results

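The rod phototransduction genes followed here were Gnat1, Gnb1, Gngt1, Pde6a, Pde6b, Pde6g, Cnga1, Sag and Rcvrn. They are parts of the rod light response and were chosen with earlier results of these data known. All 9 were found in the deposited table of 55487 genes, each under a single Ensembl identifier. Their RNA was read in cells sorted as vascular endothelial cells (VECs) from mouse retina at postnatal day (P) 7.5. There were 3 libraries of Bmal1;CKO (Bmal1FL/FL;tdTomatoFL/+;Pdgf-icreER) and 3 of control (tdTomatoFL/+;Pdgf-icreER) animals. Both genotypes carried the tdTomato reporter and the Pdgf-icreER transgene, which also expresses GFP, and both were given tamoxifen between P0.5 and P2.5. Only Bmal1;CKO carried the floxed alleles of Bmal1, and the study's animals were on a C57BL/6J background. Cells positive for both GFP and tdTomato were collected, so the deletion and the sort rested on the same endothelial Cre driver. The libraries are numbered as in the table, with control as 1 to 3 and Bmal1;CKO as 4 to 6.

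Rods are the dim-light photoreceptors of the retina and its most numerous cell type in the mouse. Light on the visual pigment activates the G protein transducin, which relieves the inhibition of a cGMP phosphodiesterase, and the fall in cGMP closes a cation channel in the outer segment. Arrestin then binds the pigment and stops the signal, while recoverin, a calcium sensor, holds back the pigment's kinase in the dark. Rods are still building their outer segments at the age studied. Most of these proteins are known from photoreceptors, although Gnb1 serves G protein signalling in many cell types.

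The 6 libraries had 71145068 to 104017800 reads on genes. The target gene, listed as Arntl, had 1700, 3489 and 2928 normalized counts (reads divided by the size factor of the library) in control libraries 1, 2 and 3, and 1779, 2747 and 2415 in Bmal1;CKO libraries 4, 5 and 6, so the groups overlapped at the level of the whole gene (log2 fold change -0.19 ± 0.36 SE, adjusted p = 0.924, limma-trend). This value was -0.49 without control library 1 and 0.03 without control library 2. The study itself reported significantly fewer copies of Bmal1 RNA in sorted Bmal1;CKO cells by droplet digital PCR. A single count per gene does not show the deleted part of the gene apart from the rest. All 14 endothelial markers had reads in every library, with a summed level of 197601 to 388804 normalized counts in control and 120459 to 255465 in Bmal1;CKO. The 10 markers of microglia and macrophages, also present in every library, summed to 1457310 to 4313190 and 2111900 to 4207930. This sum was above the endothelial sum in every library. The levels given here are thus those of the sorted material and not of VECs alone. The 5 pericyte markers summed to 2353 to 42594 in control and 3777 to 6834 in Bmal1;CKO, and Abcc9 among them had 0 reads in control library 1. The 3 erythroid markers summed to 1029 to 14849 and 1236 to 8283. Control library 1 had the fewest genes with a read (21598, against 22142 to 27904 in the others) and the lowest level of 36.4% of all tested genes. Bmal1;CKO library 4 had the fewest reads on genes (71145068) and the next fewest genes with a read (22142). Results are therefore given with and without single libraries where one decided them.

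Promoter sequence is shown for a pair of genes that were lower in Bmal1;CKO on average by more than a log2 unit (Gngt1 and Cnga1) and for a pair that differed little (Sag and Pde6b), so that their letters can be compared. RefSeq windows of GRCm38.p6, from 250 bases before to 50 bases after a start site, were at hand for 5 of the 9 genes, namely these 4 and Gnb1. They were read on both strands for TAATCC, the core of sites of the photoreceptor factors CRX and OTX2, for TGCTGA, a partial site of NRL and other MAF factors, and for CACGTG, the E-box bound by CLOCK with BMAL1. The letters in capitals mark these matches, each strand written 5′ to 3′ in the direction of the gene. The windows are chr6:3993758-3994057 on the plus strand for Gngt1, chr5:72642703-72643002 on the minus strand for Cnga1, chr1:87803430-87803729 on the plus strand for Sag and chr5:108388123-108388422 on the plus strand for Pde6b.
Gngt1: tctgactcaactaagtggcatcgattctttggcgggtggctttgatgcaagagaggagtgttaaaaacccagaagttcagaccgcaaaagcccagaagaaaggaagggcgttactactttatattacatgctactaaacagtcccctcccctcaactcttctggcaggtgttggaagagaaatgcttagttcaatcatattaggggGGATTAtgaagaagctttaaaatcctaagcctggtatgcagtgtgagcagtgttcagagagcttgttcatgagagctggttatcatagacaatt
Cnga1: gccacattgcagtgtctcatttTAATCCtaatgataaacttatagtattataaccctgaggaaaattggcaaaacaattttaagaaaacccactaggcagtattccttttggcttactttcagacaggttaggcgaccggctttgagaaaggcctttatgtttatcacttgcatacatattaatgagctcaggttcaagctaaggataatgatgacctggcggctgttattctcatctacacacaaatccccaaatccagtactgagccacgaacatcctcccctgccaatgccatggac
Sag: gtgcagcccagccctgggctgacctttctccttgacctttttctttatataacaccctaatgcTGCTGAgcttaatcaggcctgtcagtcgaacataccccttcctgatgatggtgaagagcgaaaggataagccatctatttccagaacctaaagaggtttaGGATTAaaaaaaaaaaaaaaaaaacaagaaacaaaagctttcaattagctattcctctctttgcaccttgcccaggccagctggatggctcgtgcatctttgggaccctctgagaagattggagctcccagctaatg
Pde6b: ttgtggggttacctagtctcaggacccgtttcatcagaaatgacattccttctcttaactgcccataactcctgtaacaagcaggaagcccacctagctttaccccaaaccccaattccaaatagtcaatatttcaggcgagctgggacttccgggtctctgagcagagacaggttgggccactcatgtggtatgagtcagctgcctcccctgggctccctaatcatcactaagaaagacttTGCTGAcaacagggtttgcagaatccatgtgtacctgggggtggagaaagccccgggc

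TAATCC or its reverse complement GGATTA stood in 3 of the 5 windows (Gngt1, Cnga1 and Sag), against 7.06% of the 32851 promoter windows of the same length. In Gngt1 and Sag it lay 44 and 87 bases before the start site on the reverse strand, and in Cnga1 228 bases before it on the forward strand. These start sites are those of RefSeq. The gene spans given below for Gngt1 and Cnga1 begin further upstream, so the matches of Gngt1 and Cnga1 lie inside those spans. TGCTGA stood in 2 of the 5 windows, 187 bases before the start site of Sag and 8 bases before that of Pde6b, against 19.5% of all windows. The E-box was in 0 of the 5 windows and in 7.15% of all windows. The motifs did not sort the genes by their difference between the genotypes, as Gngt1, Cnga1 and Sag shared the first one. A match is a run of letters and not a measured binding site.

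Across the 9 genes, each had its lowest level in Bmal1;CKO library 4, and 6 had their highest in control library 1. By comparison, 15.3% of the 20459 tested genes were lowest in library 4 and 26.9% were highest in library 1. All 9 passed the filter (10 or more reads in 3 or more libraries), with 153 to 221691 reads per gene and library. Their means were lower in Bmal1;CKO in 9 of 9 genes, whereas 43.4% of all tested genes were lower. As the genes were chosen with earlier results known, this count is a description and not a test. The median log2 fold change was -0.44, beside a median of 0.11 over all tested genes by limma-trend on log2(normalized count + 1). With edgeR and TMM scaling, the median over all genes was -0.03 and that of the 9 genes remained at -0.44. Their summed level was 625083, 468013 and 351472 normalized counts in control and 244047, 442912 and 330632 in Bmal1;CKO, a ratio of the group means of 0.704. In a bulk library, fewer rod cells or fragments and less of these RNAs per cell cannot be told apart.

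By limma-trend, 0 of the 9 genes had an adjusted p under 0.05, as did 0% of all tested genes. The adjusted p lay between 0.883 and 0.945, and no other tool, filter, pseudocount or set of libraries brought it below 0.120. At an unadjusted p under 0.05, 3 of the 9 were lower (Gngt1, Cnga1 and Rcvrn) and 0 higher, against 1.75% of all tested genes lower. Under edgeR (quasi-likelihood, TMM) the number was again 3, against 1.9% of all tested genes, and under DESeq2 it was 4, adding Pde6a, against 3.34%. It was 1 by limma without the trend, beside 922 of all 20459 tested genes in either direction (1007 by limma-trend). With 1 library left out it was 0 to 4, with 1, 2 and 3 without control library 1, 2 and 3, and 0, 4 and 1 without library 4, 5 and 6. Over all tested genes, in either direction, it was 1746 of 20224, 900 of 19931 and 2332 of 19600 without these control libraries. It was 328 of 19953, 318 of 19372 and 558 of 19489 without library 4, 5 and 6. A log2 fold change below -1 was found for 3 of the 9 (Gngt1, Pde6a and Cnga1) and for 6.31% of all tested genes. The groups did not overlap in 2 of the 9 (Gnb1 and Cnga1), both lower in Bmal1;CKO, against 4.54% of all tested genes that were lower without overlap. None was higher without overlap, against 6.62% of all tested genes. An exact permutation test of 3 libraries against 3 cannot give a p below 0.1. Without Bmal1;CKO library 4, 6 of the 9 genes were lower, none reached an unadjusted p under 0.05 (0 of 9), and the median log2 fold change was -0.37.

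**Figure D1:**
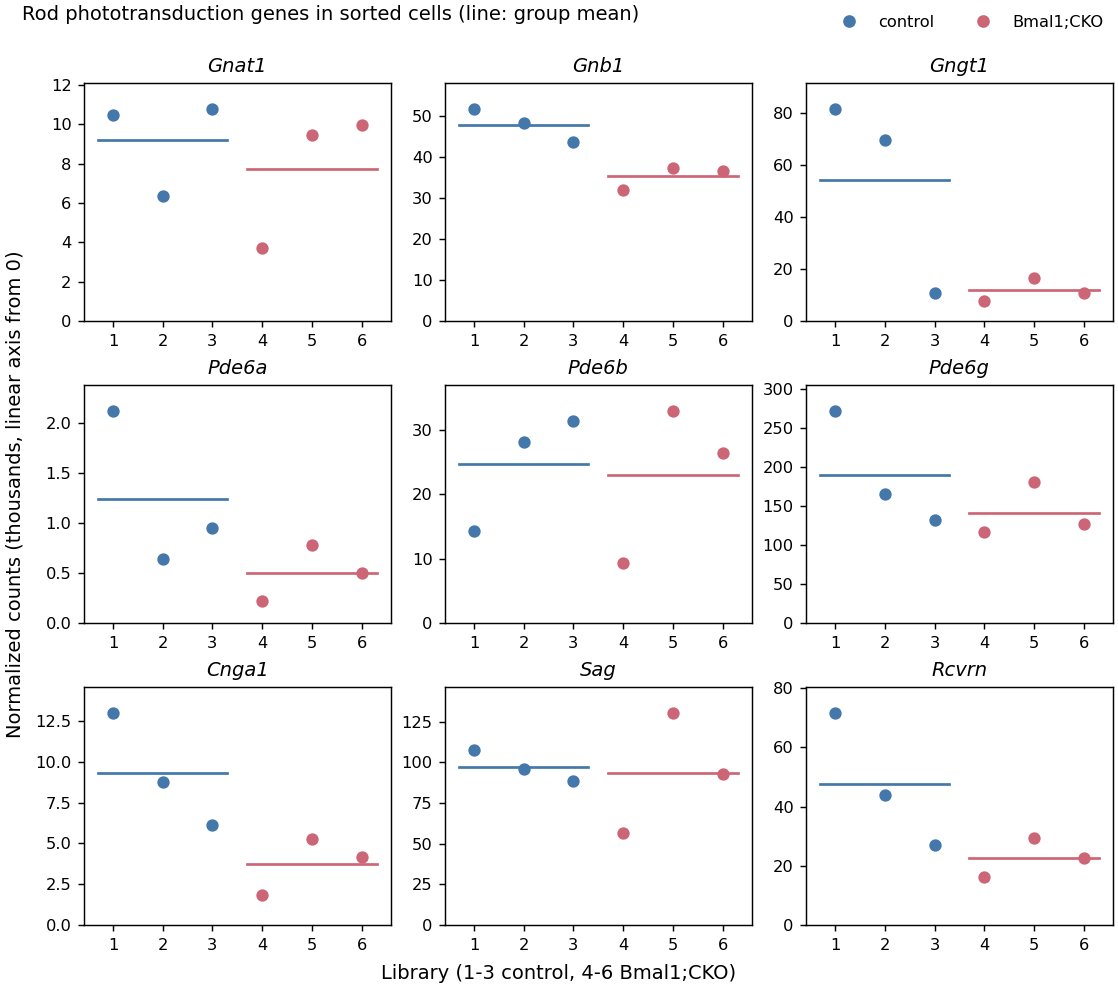
Normalized counts (in units of 1000, linear axes from 0) of the 9 rod phototransduction genes in control libraries 1 to 3 and Bmal1;CKO libraries 4 to 6, with 1 point per library and a line at each group mean. Library 4 is the lowest point in every panel, and the groups separate in the panels of Gnb1 and Cnga1.

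Rod transducin is made of an α subunit encoded by Gnat1, a β subunit encoded by Gnb1 and a γ subunit encoded by Gngt1. Gnat1 (ENSMUSG00000034837, chr9:107674474-107679712 of GRCm38, minus strand), whose product carries the bound GTP to the phosphodiesterase, had 10472, 6358 and 10803 normalized counts in control libraries 1 to 3 and 3703, 9456 and 9974 in Bmal1;CKO libraries 4 to 6. The groups overlapped, since library 4 lay below the others and libraries 5 and 6 lay between control library 2 and control library 1. Its log2 fold change was -0.35 ± 0.43 (SE, adjusted p = 0.895, limma-trend). That sign rested on library 4, without which the value was 0.12.

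Gnb1 (ENSMUSG00000029064, chr4:155491361-155559269, plus strand) had 51740, 48134 and 43499 normalized counts in control and 31796, 37338 and 36646 in Bmal1;CKO. Every Bmal1;CKO library lay below every control library, and Gnb1 was the least variable of the 9 genes, with a log2 SD of 0.13 within either group. The mean was 47791 ± 4132 (SD, n = 3) for the controls and 35260 ± 3020 (SD, n = 3) for Bmal1;CKO. This is a log2 fold change of -0.44 ± 0.24 (SE, adjusted p = 0.883, limma-trend, and p = 0.1 in the two-sided exact permutation test, the smallest that it allows). It stayed between -0.50 and -0.37 when any 1 library was left out. Gnb1-ps2, a processed pseudogene of this gene, was listed with 1710 to 3621 reads, so a part of the reads of near-identical copies may be split between them.

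Gngt1 (ENSMUSG00000029663, chr6:3993792-3997436, plus strand) gave the widest spread. It had 81661, 69689 and 10642 normalized counts in control and 7728, 16621 and 10789 in Bmal1;CKO. Control libraries 1 and 2 stood far above the rest, whereas control library 3 fell among the Bmal1;CKO libraries, so the groups overlapped. The highest control library had 7.67 times the level of the lowest, and the highest of Bmal1;CKO 2.15 times. The log2 fold change of -1.82 ± 0.75 (SE, 95% interval -3.56 to -0.07, adjusted p = 0.883, limma-trend) was the largest of the 9 genes. It was -2.76 without control library 3 and -1.29 without control library 1, and DESeq2 gave it the smallest adjusted p of any of these genes under any setting (0.120).

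The rod phosphodiesterase PDE6 has catalytic α and β subunits from Pde6a and Pde6b and a small inhibitory γ subunit from Pde6g. Pde6a (ENSMUSG00000024575, chromosome 18) had 2124, 643 and 953 normalized counts in control and 215, 777 and 504 in Bmal1;CKO. Control library 1 was the highest and library 4 the lowest, and the other libraries of the groups overlapped. The log2 fold change was -1.31 ± 0.65 (SE, adjusted p = 0.883, limma-trend), and it was -0.80 without library 4.

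Pde6b (ENSMUSG00000029491, chr5:108388391-108432397, plus strand) followed another order, with 14362, 28169 and 31334 normalized counts in control and 9330, 32981 and 26429 in Bmal1;CKO. Its lowest libraries were library 4 and then control library 1, and the remaining libraries of either genotype lay close together. The log2 fold change of -0.21 ± 0.52 (SE, 95% interval -1.43 to 1.00, adjusted p = 0.940, limma-trend) became 0.34 without library 4.

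Pde6g (ENSMUSG00000025386, chr11:120447605-120453500, minus strand) was the most abundant of the genes. It had 272767, 166280 and 132506 normalized counts in control and 116526, 180570 and 126711 in Bmal1;CKO, between 0.116% and 0.254% of all reads on genes. The groups overlapped, with control library 1 above and library 4 below the others. The log2 fold change was -0.39 ± 0.40 (SE, adjusted p = 0.886, limma-trend), and it was -0.10 without control library 1 and -0.62 without control library 3.

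Cnga1 encodes the α subunit of the rod cGMP-gated channel, through which the dark current flows. It (ENSMUSG00000067220, chr5:72603696-72644275, minus strand) had 12999, 8738 and 6148 normalized counts in control and 1831, 5258 and 4196 in Bmal1;CKO. The groups did not overlap, and the gap between control library 3 and Bmal1;CKO library 5 was smaller than the spread within either group. The mean was 9295 ± 3460 (SD, n = 3) for the controls and 3762 ± 1754 (SD, n = 3) for Bmal1;CKO, or a log2 fold change of -1.37 ± 0.46 (SE, unadjusted p = 0.0178, adjusted p = 0.883, limma-trend). Its 95% interval ran from -2.43 to -0.31. Leaving out 1 library at a time gave -1.68 without library 5 to -0.92 without library 4.

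Sag and Rcvrn act in the shut-off of the response. Sag (ENSMUSG00000056055, chr1:87803680-87845158, plus strand), which encodes rod arrestin, had 107327, 95948 and 88460 normalized counts in control and 56680, 130453 and 92865 in Bmal1;CKO. The controls were alike, and the Bmal1;CKO libraries lay on both sides of them. Its log2 fold change was -0.14 ± 0.37 (SE, 95% interval -0.996 to 0.72, adjusted p = 0.945, limma-trend), the smallest of the 9 genes, and 0.18 without library 4.

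Rcvrn (ENSMUSG00000020907, chr11:67695326-67703333, plus strand) encodes recoverin. It had 71630, 44054 and 27127 normalized counts in control and 16236, 29457 and 22518 in Bmal1;CKO, so that only control library 3 and Bmal1;CKO library 5 were out of order. Its log2 fold change was -0.997 ± 0.41 (SE, 95% interval -1.94 to -0.05, adjusted p = 0.883, limma-trend), and it was -0.65 without control library 1. Glp2r lies over a Rcvrn exon on the opposite strand and had 10 to 321 reads. The use of strand in the counting is not given in the sources used here.

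**Figure D2:**
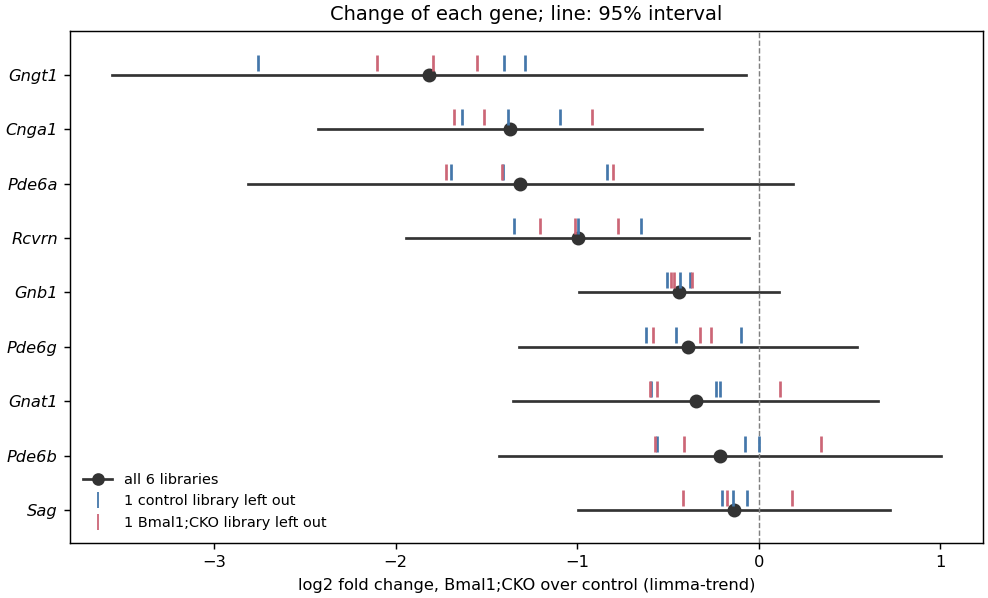
log2 fold change of each gene, Bmal1;CKO over control, from limma-trend on log2(normalized count + 1), with the 95% interval as a line and the values with 1 library left out as coloured ticks (blue for a control, red for a Bmal1;CKO library). The intervals of Gngt1, Cnga1 and Rcvrn lie below 0 before adjustment, and the right-hand red ticks of Gnat1, Pde6b and Sag, at 0.12, 0.34 and 0.18, are the values without library 4.

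Levels were compared between genes as normalized counts per kb of annotated exon, averaged over the 6 libraries. The order was Pde6g at 71598, Rcvrn at 33818, Sag at 10702, Gnb1 at 9729, Gngt1 at 9347, Pde6b at 4729, Gnat1 at 2793, Cnga1 at 1032 and Pde6a at 185. Pde6g lay above Rcvrn, Rcvrn above Sag, Gnat1 above Cnga1 and Cnga1 above Pde6a in 6 of 6 libraries. Sag exceeded Gnb1 in 2 of 6 libraries, Gnb1 exceeded Gngt1 in 4 and Gngt1 exceeded Pde6b in 3, so these neighbours did not differ beyond their spread. Pde6b exceeded Gnat1 in 5 of 6. The inhibitory subunit of the phosphodiesterase was thus far above its catalytic partners, by 9.17 to 41.2 times over Pde6b per kb, and Pde6b was in turn far above Pde6a. The exon lengths pool all annotated transcripts of a gene, which lowers the value of a gene with rarely used exons. Before division by length (8.904 kb for Sag and 1.04 kb for Rcvrn), Sag had more normalized counts than Rcvrn in every library. The order of that pair thus rests on the lengths used.

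Ratios between partners within a library do not depend on the scaling of the library. The 6 ratios below were chosen after the values of the genes were seen, and are given without a test. Pde6a to Pde6b, the partners of the catalytic dimer, had a per-kb ratio of 0.159 in control library 1, 0.0245 in control library 2 and 0.0326 in control library 3, and of 0.0247, 0.0253 and 0.0205 in Bmal1;CKO libraries 4 to 6. Apart from control library 1, where Pde6a was high and Pde6b low, the dimer's partners kept a ratio of 0.0205 to 0.0326, so the low level of both in library 4 left their proportion as in the other libraries. The ratio of Gngt1 to Gnat1 was 6.72, 9.44 and 0.849 in control and 1.80, 1.51 and 0.932 in Bmal1;CKO, which sets control libraries 1 and 2 apart from the other 4 libraries.

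The ratio of Cnga1 to Cngb1, the β subunit of the same channel, was 0.384, 0.356 and 0.334 in control and 0.104, 0.153 and 0.208 in Bmal1;CKO. It was the sole one of the 6 in which the groups did not overlap. Since Cnga1 by itself did not overlap between the groups, this is not an independent result. Cngb1 itself had 50103, 36291 and 27194 normalized counts in control and 26008, 50834 and 29825 in Bmal1;CKO, which gave a log2 fold change of -0.11 ± 0.36 (SE, adjusted p = 0.956, limma-trend). The Cngb1 locus also gives rise to shorter transcripts for the glutamic acid-rich proteins (GARPs) of rods, and 1 value per gene cannot tell these from the channel subunit. The ratio of Sag to Gnat1 was 2.79 to 5.13 in control and 3.17 to 5.21 in Bmal1;CKO, and that of Gnb1 to Gnat1 was 2.86 to 5.37 and 2.61 to 6.09.

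**Figure D3:**
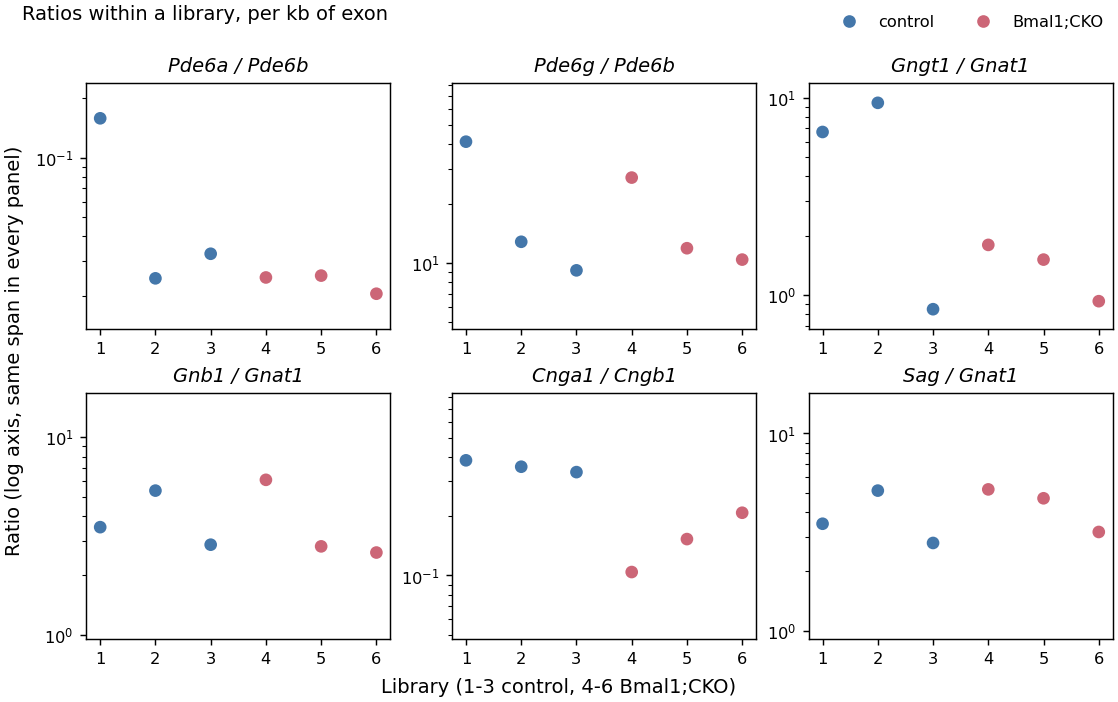
Ratio of each pair of genes within a library, per kb of exon, on log axes of equal span, for control libraries 1 to 3 and Bmal1;CKO libraries 4 to 6. Control library 1 stands apart for Pde6a to Pde6b, control libraries 1 and 2 for Gngt1 to Gnat1, and the 3 control libraries lie above the 3 Bmal1;CKO libraries for Cnga1 to Cngb1.

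The other genes of the rod response were followed with a list of 14, which covers the second channel subunit, the exchanger, the kinase, the GTPase-activating complex, the guanylate cyclases with their activating proteins, and chaperones of transducin and PDE6. Of these, 11 were lower and 3 higher in Bmal1;CKO, and their median log2 fold change was -0.40 by limma-trend and -0.50 with edgeR and TMM scaling. By limma-trend 0 had an adjusted p under 0.05, and 2 were lower at an unadjusted p under 0.05 (Gnb5 and Aipl1). This compares with 1.75% of all tested genes lower at that p. The number was also 2 with edgeR and with DESeq2, 0 by limma without the trend, and 0 without library 4. Without library 4, 328 of 19953 tested genes reached that p in either direction, against 1007 of 20459 with all libraries. As for the 9 genes, library 4 was the lowest for most of them, 9 of 14. Pdc, which encodes phosducin, a binding partner of the transducin βγ subunits, had 199727, 290635 and 161070 normalized counts in control and 108054, 228828 and 142420 in Bmal1;CKO. It overlapped between the groups (log2 fold change -0.47 ± 0.43 SE, adjusted p = 0.883, limma-trend). Leaving out library 4 or control library 2 gave -0.22 or -0.24, and leaving out library 5 gave -0.76.

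The groups did not overlap in 2 of the 14, Gnb5 and Rgs9bp, both lower in Bmal1;CKO, against 4.54% of all tested genes. Both belong to the complex that speeds GTP hydrolysis by transducin, as the partner and the membrane anchor of RGS9. Gnb5 had 7343, 9618 and 8200 normalized counts in control and 3820, 5498 and 5425 in Bmal1;CKO, which gave a log2 fold change of -0.78 ± 0.26 (SE, unadjusted p = 0.0166, adjusted p = 0.883, limma-trend). Rgs9bp had 1026, 1298 and 977 in control and 204, 537 and 845 in Bmal1;CKO, which gave a log2 fold change of -1.27 ± 0.57 (SE, adjusted p = 0.883, limma-trend). It was -0.70 without library 4 and -1.72 without library 6. Rgs9 itself overlapped between the groups, with a mean of 793 ± 626 (SD, n = 3) for the controls and 531 ± 201 (SD, n = 3) for Bmal1;CKO. Like Gnb1, Gnb5 is also used outside photoreceptors.

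Cones use a parallel set of genes, and 8 rod and cone counterparts were compared as log2 ratios within each library. The 7 cone genes (Gnat2, Gnb3, Gngt2, Pde6c, Pde6h, Cnga3 and Arr3) had 1 lower and 6 higher in Bmal1;CKO. Their median log2 fold change was 0.44 by limma-trend, and 0.31 with edgeR and TMM scaling or with DESeq2. By each of these tools, 0 of the 7 had an adjusted or unadjusted p under 0.05. Of all 20459 tested genes, 1007 had such an unadjusted p by limma-trend, in either direction. At that unadjusted p, 1 of the 7 was higher by limma-voom, beside 996 of all tested genes. By limma-trend, 1 was lower without control library 1 (1746 of 20224 tested genes) and 1 was higher without control library 3 (2332 of 19600). The limma-trend median was 0.69 without control library 2, 0.29 without library 5 and 0.09 without control library 1. Control library 1 had the lowest level of 6 of the 7 cone genes and the highest of 6 of the 9 rod genes. The rod to cone ratio was lower in Bmal1;CKO in 7 of the 8 pairs, and in 5 of the 8 without control library 1. Gngt1 to Gngt2 had log2 ratios of 1.52, 1.40 and 0.12 in control and -2.01, -0.78 and -0.52 in Bmal1;CKO, a difference of -2.12. Gnb1 to Gnb3 had 0.86, 0.04 and -0.07 in control and -0.47, -0.69 and -0.44 in Bmal1;CKO, a difference of -0.81. In these 2 pairs the groups did not overlap (p = 0.1 by exact permutation, two-sided, the lowest that 3 against 3 allows, and adjusted p = 0.4 over the 8 pairs). Since Gnb1 by itself did not overlap between the groups, its pair is not an independent result. The cone genes of these 2 pairs had more normalized counts than Gnat2 (1460 to 5535), with 28544 to 60284 for Gnb3 and 9809 to 31198 for Gngt2. The cells that gave these reads were not tested, so these are ratios between genes and not between cell types. The other 6 pairs overlapped, with p between 0.3 and 1.0 in the exact permutation test, and Sag to Arr3 stood at a log2 ratio of 11.1 in control library 1 and 6.72 to 7.29 elsewhere. Cnga3 had 0 reads in control libraries 1 and 2, so its ratio to Cnga1 rests there on the pseudocount of 1 alone.

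Transcription factors that set photoreceptor fate were followed in the same libraries. Nrl, which directs precursors to the rod fate, had 21051, 31761 and 24089 normalized counts in control and 17329, 32177 and 21953 in Bmal1;CKO. Crx, which with NRL drives many photoreceptor genes, had 25042, 30005 and 25346 against 16688, 25860 and 29916. Both overlapped between the groups. Library 4 was the lowest for 3 of the 6 factors (Crx, Nrl and Neurod1), control library 1 for Nr2e3 and Otx2, and control library 3 for Prdm1. Of the 6 factors (Crx, Nrl, Nr2e3, Otx2, Neurod1 and Prdm1), 2 were lower and 4 higher, with a median log2 fold change of 0.05 and 0 at an unadjusted p under 0.05. The direction turned with single libraries, as 0 were lower without library 4 (median 0.25), 1 without control library 2 (0.18), 4 without control library 1 (-0.08), control library 3 (-0.10) or library 6 (-0.07), and 5 without library 5 (-0.10).

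Markers of other cells were highest or lowest in different libraries from list to list, and 0 of them had an adjusted p under 0.05 by limma-trend. In Bmal1;CKO, 14 of 14 endothelial markers were lower, by a median of -0.45 on the log2 scale, which was -0.12 without control library 1 and -0.11 without library 5. Library 5 was the lowest for 14 of 14 and control library 1 the highest for 12 of 14. The 7 bipolar markers were lower in 6 of 7 (median -0.56, or -0.32 without library 4) and summed to 22610 to 52061 normalized counts in control and 24354 to 45432 in Bmal1;CKO. The microglial markers were higher in 9 of 10 (median 0.41). This median was 0.82 without control library 1, 0.08 without control library 2, 0.22 without control library 3 and 0.16 without library 4, and their summed level was the highest in control library 1 and then in library 4. The 6 Müller glia markers were higher in 5 of 6 (median 0.31, but 0.02 without control library 1, 0.19 without control library 2 and 0.21 without library 4) and summed to 72992 to 81077 in control and 67856 to 96726 in Bmal1;CKO, with the highest sum in library 4. The pericyte and erythroid medians were 0.59 and -0.69. They were -1.82 and -1.69 without control library 1, but 2.91 and 0.20 without control library 3, which was the highest for all 5 pericyte and all 3 erythroid markers. Over all single libraries left out they ran from -1.82 to 2.91 and from -1.69 to 0.20. Relative to the summed endothelial markers, the 8 rod genes other than Gnb1 stood at 1.47, 1.99 and 1.56 in control and 0.967, 3.37 and 1.15 in Bmal1;CKO, so that the genotypes overlapped on this scale and library 5 was the highest. Relative to the microglial markers they stood at 0.133, 0.288 and 0.175 in control and 0.0504, 0.142 and 0.139 in Bmal1;CKO. Relative to the Müller glia markers they stood at 7.07, 5.59 and 4.22 in control and 2.19, 5.98 and 4.06 in Bmal1;CKO. The genotypes overlapped on these scales too, but library 5 was not the highest, and library 4 was the lowest on each scale. The part of these cell types in the levels of the rod genes was not tested.

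**Figure D4:**
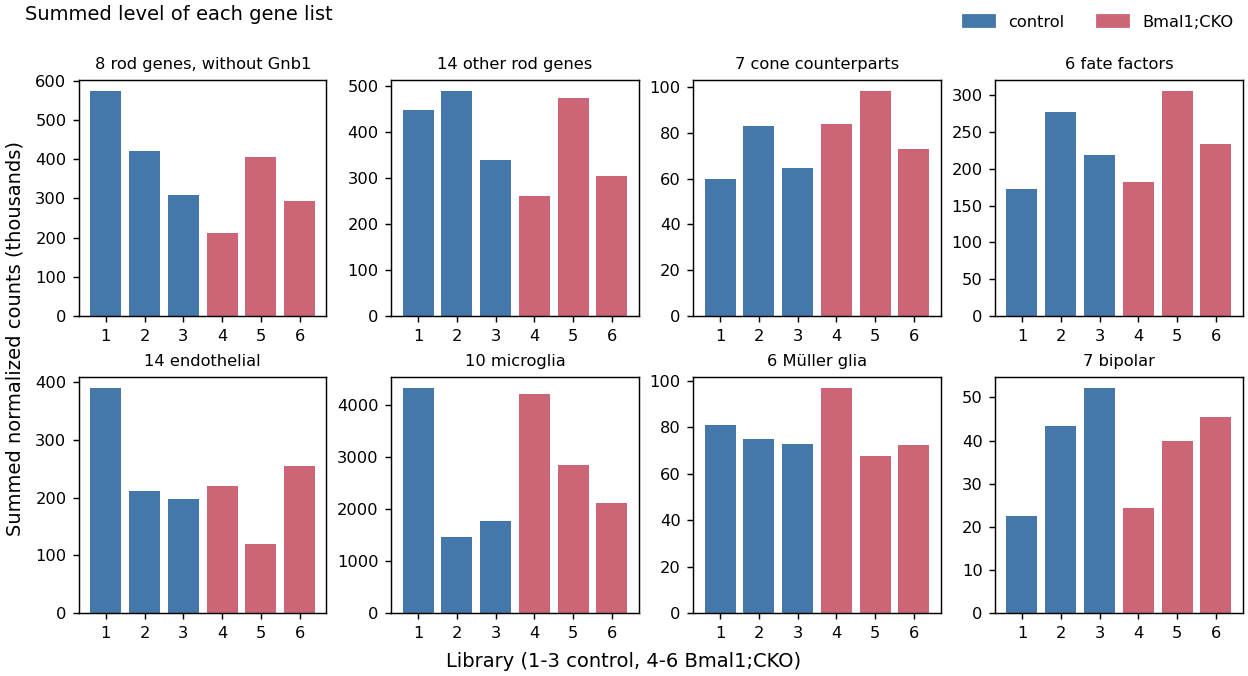
Summed normalized counts (in units of 1000, axes from 0) of each gene list in control libraries 1 to 3 and Bmal1;CKO libraries 4 to 6, with 1 bar per library. The 8 rod genes run from 212251 in library 4 to 573342 in control library 1, the cone genes are lowest in control library 1, and the microglial sums are highest in control library 1 and library 4.

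Among the 9233 other tested genes with a mean of at least 1000 normalized counts, those whose levels followed the mean log2 level of the 8 rod genes other than Gnb1 most closely over the 6 libraries were Nemf, Sorbs2, Ttc13, Celf2, Parg, Ciao1, Kif13a and Clasp1, with Pearson coefficients of 0.977 to 0.996. The list depended on the scaling, since 2 of the 8 remained when log2 RPM was used in place of the deposited normalization. Of the 14 other rod genes, only those with a mean of at least 1000 were ranked. Among these, Gucy2e, a guanylate cyclase of photoreceptors, came nearest (coefficient 0.960, rank 26). Guca1b, a calcium sensor that regulates it, was next (0.937, rank 60). The rest followed less closely, down to Pde6d (0.553, rank 1330) and Grk1 (-0.007, rank 4534). Among the 9 genes, Cnga1 followed the mean of the other rod genes most closely (0.980) and Pde6b least (0.303). These coefficients rest on 6 libraries that share their scaling, and among so many genes some will be high.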

How the data were processed

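RNA of cells sorted as VECs from 3 Bmal1;CKO and 3 control animals was amplified (Smart v4) and sequenced from Nextera XT libraries. The authors used FastQC for quality, Trimmomatic for trimming, Bowtie for alignment to mm10 (GRCm38) and featureCounts for gene counts; versions are not given in the sources used here. The values deposited by the authors are a signal, the read count of a gene over the size factor that DESeq2 gave its library, here called normalized counts. The authors' deposited table also holds their own mean, log2 fold change, standard error and Wald score, p-value and adjusted p-value, which were not used. Columns name the genotype and are numbered 1 to 6, so they were used as replicates of a genotype without a match to an animal. Where the p-values treat libraries as animals, they measure the spread between these libraries.

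Dividing each column by its smallest step gave whole reads (within 0.01) for 100% of the values. Genes reaching 10 reads in 3 or more libraries were tested with limma-trend (limma 3.58.1, R 4.3.3) on log2(normalized count + 1), with Benjamini-Hochberg adjustment over all 20459 genes. The added 1 shrinks log2 differences at low counts, but a library at 0 reads still weighs heavily. Cnga3, for example, had a log2 fold change of 4.77 with means of 157 in control and 219 in Bmal1;CKO. Alternatives were edgeR 4.0.16, DESeq2 1.42.0 and limma-voom on the recovered reads, limma without the trend, pseudocounts of 0.5 and 10, other filters and each library left out. The code of the fits was checked on simulated data with large planted changes and a common dispersion for all genes. This does not measure how well smaller changes would be found in the present libraries. Single ratios were compared with two-sided exact permutation tests. Positions and exon lengths came from GENCODE M21 (GRCm38) and promoters from RefSeq (GRCm38.p6). The members and lists were chosen with earlier results of these data known. The genes named are the 9 members, the listed genes, and the 8 genes of highest correlation with the members. Python 3.11.15 with scipy 1.17.1, pandas 2.3.3, numpy 2.4.6 and matplotlib 3.10.9 served for tables and figures.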

Additional observations from a re-analysis of the deposited data

How the results depend on the processing

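No paired analysis was possible because the columns are numbered 1 to 6 and the genotypes share no number. Across the table, 0 genes were called by limma-trend, with 1007 at an unadjusted p under 0.05. The count was 67 with DESeq2, 61 without the trend, 1 with either other filter, and 0 to 6 with 1 library left out, the 6 without control library 1. It was 0 with edgeR, which had 777 genes at an unadjusted p under 0.05 with TMM scaling, and with limma-voom, which had 996. None of these settings called any of the 9 rod genes, the 14 other rod genes or the 7 cone genes. All 9 rod genes were lower under every tool, pseudocount and filter, and 6 to 9 were lower with 1 library left out. Without Bmal1;CKO library 4, Gnat1, Pde6b and Sag turned to log2 fold changes of 0.12, 0.34 and 0.18, and with 1 library left out they ranged from -0.60, -0.57 and -0.42 up to these values. Cngb1 turned to 0.09 without library 4 and ranged from -0.40 without library 5 to 0.12 without control library 1. The cone genes that were lower numbered 0 to 3 with 1 library left out, 3 of them without control library 1 and 0 without control library 2. Of the 8 genes most like the rod genes, 6 were shared with Spearman correlation and 2 with log2 RPM. The causes were not tested. Every rod gene had at least 153 reads in every library, and reads of amplified libraries are not independent molecules.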
